A study of Caenorhabditis elegans with 2 samples.

Results

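Small nucleolar RNA (snoRNA) genes that lie inside a protein-coding gene on the same strand, called hosted snoRNA genes here, were examined for peaks of SNPC-4 in chromatin immunoprecipitation followed by sequencing (ChIP-seq) of Caenorhabditis elegans larvae. The genes were taken from the Ensembl annotation of WBcel235 as those of biotype snoRNA, without names that start with smy-, whose whole span is covered by a same-strand protein-coding gene. This gave 182 of 344 snoRNA genes, in 158 different host genes. The other 162 snoRNA genes had no such host. The study has 1 group of 2 biological replicates, chromatin of whole L4 larvae of mixed sex from strain OP179, which carries unc-119(ed3) III and the insertion wgIs179 with eGFP-tagged snpc-4. The tagged protein comes from that insertion, and all cell types of the animal are mixed. Background was not measured here, since neither an untagged nor an input sample was analysed. The read depth is unknown because the lists give no read counts. With a single group no comparison between conditions and no test over samples was possible, and the shares below are counts of genes, with exact Clopper-Pearson 95% intervals that cover the counting of genes only.

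snoRNAs guide the chemical modification of ribosomal and other RNAs. Those of the C/D class carry conserved C and D boxes and direct methylation of the ribose, and those of the H/ACA class carry an ACA near the 3′ end and direct pseudouridylation. In vertebrates most are cut out of introns of a host transcript, whereas others are transcribed from a promoter of their own. SNPC-4 corresponds to a subunit of SNAPc, the small nuclear RNA-activating protein complex, known for binding a proximal sequence element in front of small nuclear RNA genes.

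The sequences just upstream of the hosted genes with a peak are shown first, because most share a paired element at nearly the same distance from the gene. Each line gives the 90 bases before the annotated 5′ end, in WBcel235 (the sequence of ce11, the build of the lists) and in the direction of the gene. Capitals mark AACNCG and, 5 bases further on, TGTC. F54E7.10, inside the ribosomal protein gene rps-12, has no match and is shown last. Its summit lies at −265 bp, outside the bases shown and searched, so the sequence under its peak was not examined. Y37E3.20 also has the element, and its sequence is not shown.
ZK994.7 (chrV:8500489-8500578, plus strand): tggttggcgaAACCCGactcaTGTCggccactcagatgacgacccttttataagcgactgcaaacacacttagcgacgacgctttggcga
F01D5.12 (chrII:14018442-14018531, minus strand): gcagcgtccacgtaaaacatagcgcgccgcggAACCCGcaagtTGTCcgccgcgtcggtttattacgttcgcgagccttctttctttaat
C16D9.11 (chrV:8228970-8229059, minus strand): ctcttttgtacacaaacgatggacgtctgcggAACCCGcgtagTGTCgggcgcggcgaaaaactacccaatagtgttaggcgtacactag
C08D8.3 (chrV:8349018-8349107, plus strand): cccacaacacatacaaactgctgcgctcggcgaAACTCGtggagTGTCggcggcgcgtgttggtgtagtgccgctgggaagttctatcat
W04D2.7 (chrV:12491190-12491279, plus strand): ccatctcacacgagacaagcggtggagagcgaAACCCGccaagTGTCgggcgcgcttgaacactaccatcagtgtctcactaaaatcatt
T06D8.11 (chrII:11224092-11224181, plus strand): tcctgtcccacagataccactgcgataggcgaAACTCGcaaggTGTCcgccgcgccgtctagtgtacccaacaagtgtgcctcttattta
F54F11.6 (chrII:13521211-13521300, plus strand): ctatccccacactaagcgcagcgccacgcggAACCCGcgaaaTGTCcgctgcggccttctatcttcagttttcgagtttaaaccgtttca
T19C4.11 (chrV:11175707-11175796, minus strand): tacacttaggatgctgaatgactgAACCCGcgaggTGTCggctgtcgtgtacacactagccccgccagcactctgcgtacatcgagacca
Y73B6A.14 (chrIV:6664556-6664645, minus strand): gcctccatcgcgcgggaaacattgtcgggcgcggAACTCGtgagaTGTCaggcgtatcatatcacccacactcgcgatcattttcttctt
F54E7.10 (chrIII:5679288-5679377, plus strand): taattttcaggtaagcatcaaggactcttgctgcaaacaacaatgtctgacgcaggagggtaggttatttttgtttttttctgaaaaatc

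A minority of the hosted genes had a peak near the 5′ end that passed the authors' threshold. In the authors' optimal list, 381 peaks thresholded by the irreproducible discovery rate (IDR) and made from both replicates, 11 of the 182 hosted genes had a summit within 300 bp of the 5′ end (6.04%, 3.06 to 10.6), against 28 of the 162 other snoRNA genes (17.3%, 11.8 to 24). The same distance held a summit for 410 of all 46890 nuclear genes (0.874%) and for 132 of 19973 protein-coding genes (0.661%). Among the 381 strongest peaks of replicate 1 the hosted count was 12 (6.59%), against 24 of the other snoRNA genes (14.8%) and 0.938% of all genes. Among the 381 strongest of replicate 2 it was 10 (5.49%), against 29 of the other snoRNA genes (17.9%) and 0.825% of all genes. In all 3 lists the share of hosted genes was below that of the other snoRNA genes and above that of protein-coding genes. These differences were not tested.

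**Figure D1:**
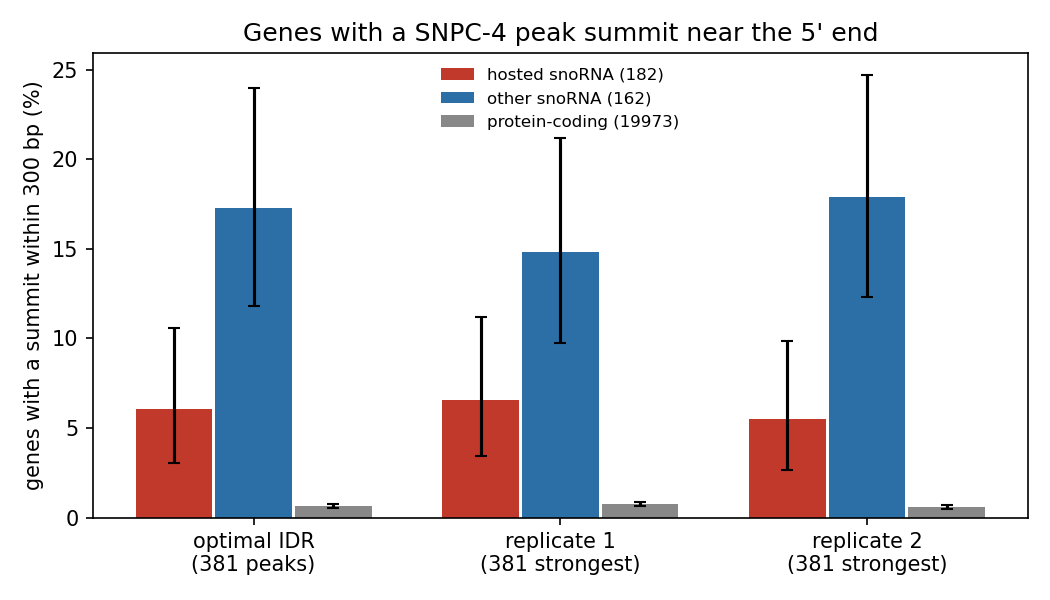
Percentage of genes with a peak summit within 300 bp of the 5′ end (y axis) for hosted snoRNA genes, other snoRNA genes and protein-coding genes, in the optimal list and among the 381 strongest peaks of each replicate. Bars are shares of genes and whiskers exact 95% intervals over genes; the hosted share lies at 5.49 to 6.59% and that of the other snoRNA genes at 14.8 to 17.9%.

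The 7 highest hosted genes stood among the 31 strongest peaks of the whole optimal list. ZK994.7 (WBGene00044958), in an intron of the peroxidasin gene pxn-1, had a signal of 928 in the optimal list, 443 in replicate 1 and 486 in replicate 2. Y37E3.20 (WBGene00044925, chromosome I, 2085037 to 2085155), in the last intron of pcyt-2.1, had 835, with 450 and 384 in replicates 1 and 2. F01D5.12 (WBGene00045139), in F01D5.10, had 755, with 404 and 342 in replicates 1 and 2. These 3 ranked 4, 7 and 10 in the optimal list, whose median signal was 31.7, and they were among the 10 strongest peaks of each replicate list. The signal is the authors' value for each peak on a scale that is not stated, and each replicate list has its own. Ranks and medians are therefore compared within a list. Ratios between the replicate lists, given below, only describe the values and do not measure agreement.

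The next 4 hosted genes were close to each other in signal. C16D9.11 (WBGene00045055), in rol-3, which encodes a receptor tyrosine kinase, had 481 in the optimal list, 242 in replicate 1 and 236 in replicate 2. C08D8.3 (WBGene00044957), in C08D8.1, had 411, with 195 and 211 in replicates 1 and 2. W04D2.7 (WBGene00014541), in the innexin gene inx-11, had 402, with 186 and 222. All were within ranks 18 to 31 of the optimal list, as was T06D8.11 (WBGene00014506) in plpr-1, with 374, and 191 and 184 in replicates 1 and 2. For the 7 strongest genes, the signal in replicate 2 was between 0.847 and 1.19 times that in replicate 1, and the replicates placed the summit within 11 bp of each other.

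The other 4 were weaker, and for 3 of them the ratio of the replicate signals lay outside the range of the 7 strongest. F54F11.6 (WBGene00219969), in the chemoreceptor gene sre-45, had 67.9 in the optimal list, 32.1 in replicate 1 and 35.3 in replicate 2, with the summit at −58 bp in both. T19C4.11 (WBGene00045170), in the G protein alpha subunit gene gpa-1, had 55.7, with 19.9 and 37.6 in replicates 1 and 2. F54E7.10 (WBGene00044941) had 35.0 in the optimal list, with 9.78 and 24.7, and Y73B6A.14 (WBGene00220203), in Y73B6A.1, had 22.3, with 9.68 and 13.6. The signal in replicate 2 was 1.1 times that in replicate 1 for F54F11.6, within the range of the 7 strongest, and 1.4 to 2.53 times for the other three. Y73B6A.14 ranked 335 in replicate 1 and 458 in replicate 2, where it fell outside the 381 strongest peaks. The replicates placed its summits 119 bp apart, 51 bp downstream of the 5′ end in replicate 1 and at −68 bp in replicate 2. The median signal of the 11 was 402, against 155 for the 28 other snoRNA genes with a summit. Over all genes with a summit in a longer list the order was the opposite, with medians of 5.72 for hosted and 12.5 for other snoRNA genes in the pooled list, 4.91 and 7.6 in replicate 1, and 5.69 and 7.9 in replicate 2.

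**Figure D2:**
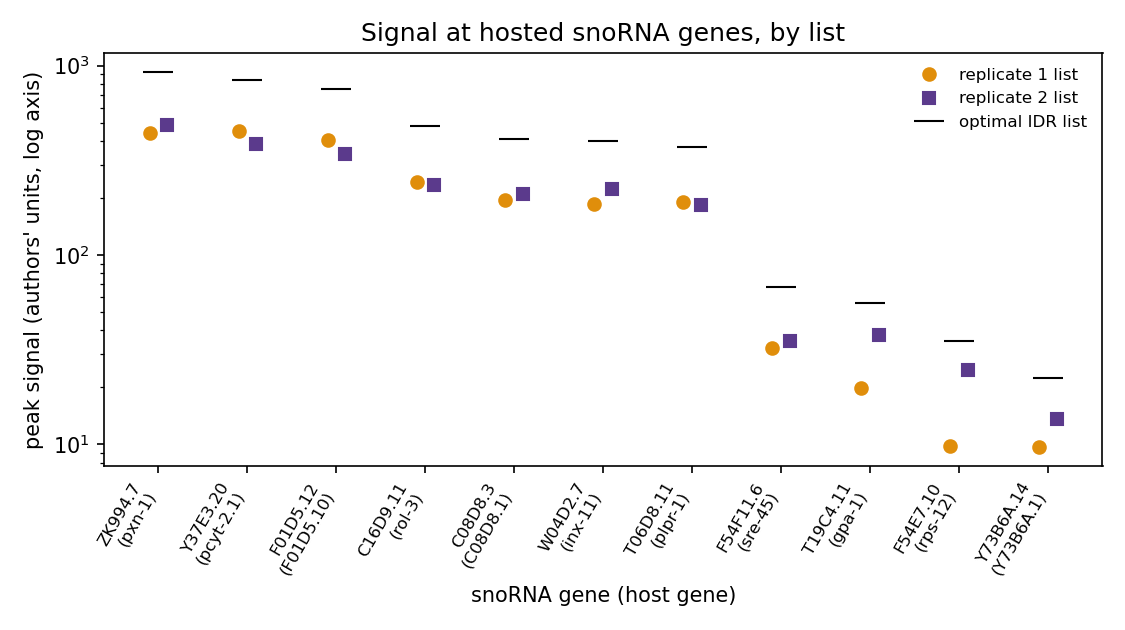
Peak signal in the authors' units on a log axis (y) at the 11 hosted snoRNA genes with a summit in the optimal list (x, host gene in parentheses). Circles are the replicate 1 list, squares the replicate 2 list and horizontal marks the optimal list; the 7 genes on the left lie at 374 or more in the optimal list, and the 4 on the right at 67.9 or less.

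Near-identical copies limit what can be said of T19C4.11. Its sequence was at least 80% identical to those of F43A11.8, F25H2.15, Y67A10A.14 and F59C6.15, and 94.4% identical to the first of these over the longer gene. None of the 4 copies is hosted, and all had a summit in the optimal list, with signals of 98.2, 274, 188 and 447. The placement of reads that match several copies is not stated, and the peak at T19C4.11 is uncertain for that reason. No other snoRNA gene was as much as 80% identical to any of the remaining 10. Only annotated snoRNA genes were compared, not the upstream bases where the summits lie, so this does not show whether reads there match elsewhere.

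All 11 optimal-list summits lay upstream of the snoRNA gene. The median position was −49 bp from the 5′ end, against −38.5 bp for the 28 other snoRNA genes, of which 26 had the summit upstream. For the 7 strongest hosted genes the summits lay between −55 and −34 bp. F54F11.6, T19C4.11 and Y73B6A.14 followed at −58, −67 and −68 bp, so that 10 of the 11 fell between 30 and 70 bp upstream. In the replicate 1 list, however, the summit at Y73B6A.14 lay 51 bp downstream of the 5′ end. F54E7.10 was apart, at −265 bp. It was the member closest to the 300 bp limit from inside, and the next nearest from inside was Y73B6A.14. The members nearest to the limit from outside were C06A1.9 at −491 bp and R151.11 at −550 bp, so the limit cuts through a gap in the positions.

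**Figure D3:**
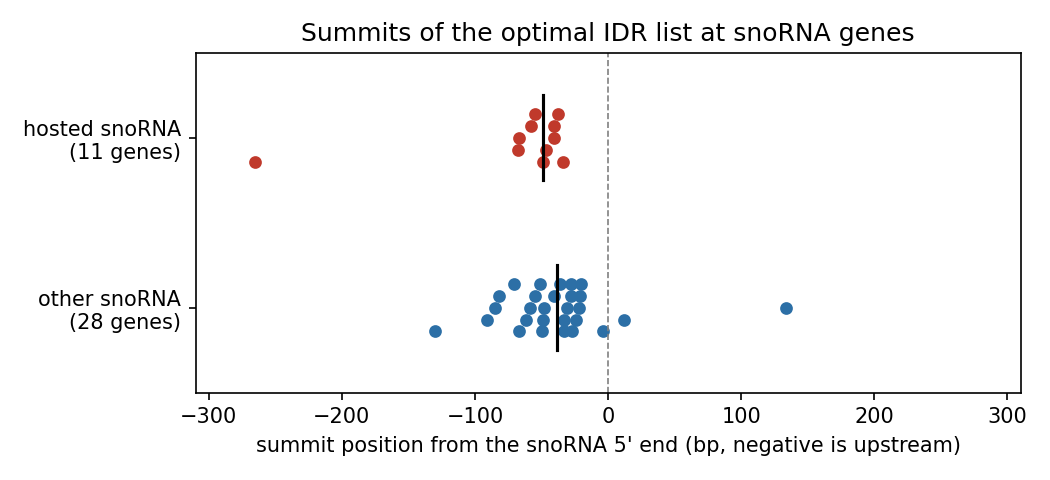
Position of the optimal-list summit relative to the snoRNA 5′ end in bp (x axis, negative is upstream) for 11 hosted genes (upper row) and 28 other snoRNA genes (lower row). Each point is a gene, shifted vertically only for display, and vertical bars are the medians, −49 and −38.5 bp; F54E7.10 is the point at −265 bp.

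The paired element was present at 10 of the 11 hosted genes with an optimal-list summit and at 1 of the 171 without (0.585%), within 150 bases upstream on either strand. For the remaining gene, F54E7.10, the summit lay at −265 bp, outside the bases searched. The pattern was written after the upstream sequences of the 11 and of some other snoRNA genes with a peak had been read, so its presence in those genes follows in part from how it was chosen. It occurred before 17 of the 28 other snoRNA genes with an optimal-list summit (60.7%) and 7 of the 134 without (5.22%), and before 26 of 19973 protein-coding genes (0.13%) and 159 of 46886 genes of all kinds whose window lies within the chromosome (0.339%). All 11 matches at hosted genes were on the strand of the gene. Both 8-base sequences known beforehand to be frequent in these same peaks overlap the pattern in part, and were rarer at these genes. GCGGAACC, on either strand, lay before 3 of the 11 and none of the 171, with 0.23% over all genes. GGCCGACA lay before 2 of the 11 and 2 of the 171, with 0.198% over all genes.

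The distance of the element from the gene varied little. The pattern sets no distance, but it was written after the upstream sequences of these genes had been read, so the distance is not independent of that choice. Its first base lay 56 to 59 bp before the 5′ end at 8 of the 10 hosted genes with both an element and an optimal-list summit. T19C4.11, at 66 bp, and ZK994.7, at 80 bp, were the exceptions. The median was 58 bp, against 60 bp over 23 other snoRNA genes with the element on their own strand, where the range was 54 to 77 bp. The optimal-list summits lay within 39 bp of the first base of the element at all 10, with a median 10 bp closer to the gene. At ZK994.7, where the element was farthest from the gene, the summit was still at −41 bp, 39 bp from the start of the element.

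**Figure D4:**
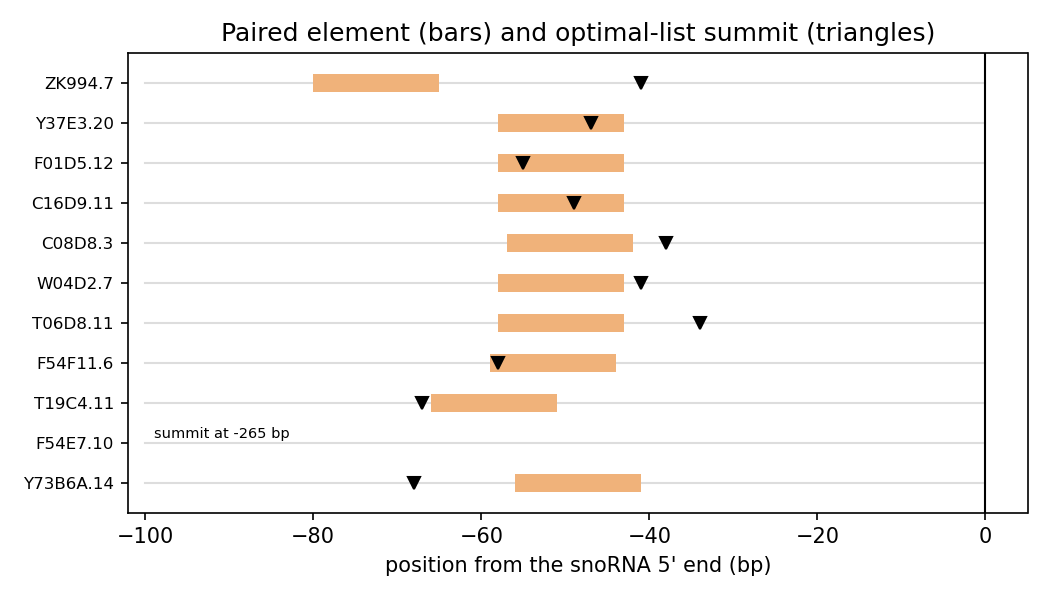
Position in bp from the snoRNA 5′ end (x axis) of the paired element (bars, 15 bases long) and of the optimal-list summit (triangles) at the 11 hosted snoRNA genes with a summit, ordered by signal from top to bottom. In 8 genes the bar starts 56 to 59 bp before the gene; F54E7.10 has no element and its summit lies outside the axis, at −265 bp.

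C02C6.13 (WBGene00219794), in lron-3, was the hosted gene with the element and no optimal-list summit. In the authors' list from pooled replicates it had a summit at −76 bp with a signal of 9.32, rank 2644 of 30000. Replicate 2 placed a summit at −69 bp with a signal of 7.56, and replicate 1 had none within 300 bp. Its element, shown here because it sits at the usual distance from the gene without a strong peak, starts 59 bp upstream.
C02C6.13 (chrX:15552488-15552577, minus strand): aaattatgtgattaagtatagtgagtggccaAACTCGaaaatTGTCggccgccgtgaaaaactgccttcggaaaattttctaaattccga

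Every optimal-list summit at a hosted gene belonged to a gene placed wholly in an intron. By the exons of all annotated protein-coding transcripts of the host, 142 of the 182 hosted genes lay in an intron and 11 of them had a summit (7.75%). The other 40 overlapped an exon and 0 had a summit, which allows a share of up to 7.5% (3 counts of 40, counting error only). Among the snoRNA genes without a same-strand host, 6 of 33 inside an opposite-strand protein-coding gene had a summit (18.2%), as did 22 of 129 outside protein-coding genes (17.1%).

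The 10 hosted genes with the element and a summit had more intron in front of them than most. Their 5′ ends lay 149 to 3380 bp downstream of the preceding exon, with a median of 258 bp. Of the 131 intronic hosted genes with no optimal-list summit, 54 were at least 149 bp from the preceding exon (41.2%) and 62 were under 100 bp from it, with a median of 108 bp. On the other side, 6 of the 10 ended within 100 bp of the next exon, as did 71 of the 131. The 100 bases upstream were 52 to 62% G or C in the 10, and 27 of the 171 hosted genes with no summit also reached 52%. The median over the 171 was 42%. Whether base composition or room in the intron has a part in the difference in signal was not tested.

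**Figure D5:**
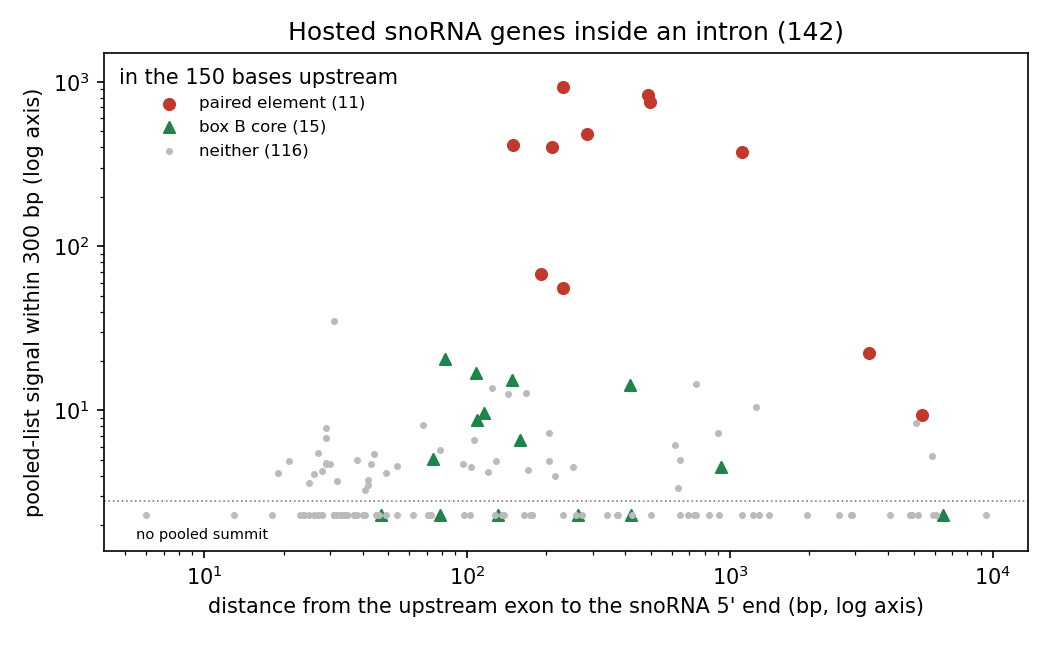
Signal in the pooled list within 300 bp of the 5′ end (y, log axis) against the distance from the preceding exon to the snoRNA 5′ end in bp (x, log axis) for the 142 hosted genes inside an intron. Circles have the paired element, triangles the core of box B on the gene strand, small dots neither, and points under the dotted line have no summit; the 9 highest points are circles, and the next, a small dot at 35.0, is F54E7.10.

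In the snoRNA sequence itself, most of the hosted genes with a summit had a match to the D box sequence, CTGA, near the end. CTGA was within the last 15 bases of 7 of the 11 hosted genes with a summit (63.6%) and of 31 of the 171 without (18.1%). The share of this short sequence over all genes was not computed, and a match alone does not establish a D box. Among the other snoRNA genes it was found in 16 of 28 with a summit and 22 of 134 without. ACA was in the last 10 bases of 2 of the 11 and 63 of the 171. TGATGA, the C box in its plain form, was in the first 15 bases of none of the 11 and 8 of the 171, so strict C and D boxes together did not classify these genes. The genes of the 11 were 67 to 178 bases long with a median of 88, against a median of 128 in the 171. ZK994.7 and F01D5.12 are given whole, with this CTGA in capitals, as examples of the strongest genes that have it near the end.
ZK994.7 (chrV:8500579-8500645, plus strand): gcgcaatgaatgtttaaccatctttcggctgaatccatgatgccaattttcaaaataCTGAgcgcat
F01D5.12 (chrII:14018354-14018441, minus strand): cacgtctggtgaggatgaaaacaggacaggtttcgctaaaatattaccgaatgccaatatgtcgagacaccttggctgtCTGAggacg

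Genes of ribosomal proteins, translation factors and snoRNA particle proteins are hosts of snoRNAs in many animals. Ribosomal protein genes held 19 hosted genes in 13 hosts, and 1 of the 19, F54E7.10 in rps-12, had an optimal-list summit (5.26%), a share near the 6.04% of all hosted genes. That summit lay 185 bp upstream of rps-12 and was also within 300 bp of the 5′ end of the protein-coding gene ska-3, while F54E7.11, further down rps-12, had it at −632 bp. The 3 hosts counted as translation factors, eif-4A3, iff-2 and eef-1G, were grouped by gene name alone. Of these, iff-2 and eef-1G had a summit at their own start, with signals of 47.9 and 25.9 at −73 and −44 bp. The 5 snoRNA genes in the 3 hosts had none. The 4 snoRNA genes in nol-56, which encodes a core protein of C/D snoRNA particles, had no optimal-list summit, and nor did the start of nol-56. A pooled summit was present at 3 of the 4, with signals of 3.70 to 6.80, where the median of the pooled list was 4.92. Such a summit was found at 44% of all hosted genes and 23.7% of all nuclear genes. With 5 and 4 genes, counts of 0 do not set these hosts apart from the rest. In all, 5 of the 158 hosts had a summit within 300 bp of their own 5′ end (3.16%, against 0.661% of all protein-coding genes), the others being cdc-48.1 (37.7) and rps-23 (28.3). This difference was not tested.

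Several of the peaks also lay near the start of a gene outside the protein-coding, snRNA, tRNA, snoRNA, miRNA and rRNA classes. The 300 bp around the summits of Y37E3.20, F01D5.12, W04D2.7, T06D8.11 and T19C4.11 held the start of at least 1 such gene, namely Y37E3.29, F01D5.14, W04D2.14, T06D8.13 with T06D8.17, and T19C4.17. Such genes also lay near summits of other snoRNA genes, for example Y55F3BR.17 at Y55F3BR.9. The share over all peaks or genes was not computed, so this does not set the hosted genes apart. None of the 11 summits was within 300 bp of the 5′ end of another annotated snRNA, tRNA, snoRNA, miRNA or rRNA gene.

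Below the optimal list, whose 381 peaks are the 381 strongest of the pooled list, most hosted genes had no pooled summit, and signal at those that did was mostly close to the median of that list. The authors label the pooled list as peaks and background used as input for IDR. Its entries outside the optimal list are not in the IDR-thresholded list and may be background. Among its 30000 entries, 80 of the 182 hosted genes had a summit within 300 bp (44%). The share was 87 of 162 for the other snoRNA genes (53.7%) and 23.7% for all nuclear genes. The 69 hosted genes with a pooled summit and no optimal one had signals of 3.28 to 20.5 with a median of 5.12, where the median of the list was 4.92. The pooled summits of the 80 lay upstream in 41 cases and downstream in 38, and 19 of them fell 30 to 70 bp upstream. In the full list of replicate 1, with 11042 peaks, 35 hosted genes had a summit (19.2%, where all genes had 13.6%). In the full list of replicate 2, with 30000 peaks, 67 did (36.8%, with 20.1% of all genes), and among its 11042 strongest 47 did (25.8%, with 9.23% of all genes). A summit was present in both full replicate lists for 23 hosted genes, and 89 had none in any list. The matching shares over all genes were not computed, so these counts do not set the hosted genes apart.

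The highest of these pooled entries outside the optimal list were at F55A11.10, C51F7.3 with C51F7.4, F11A10.9 and F39B2.14. F55A11.10, in F55A11.6, had a pooled signal of 20.5 at rank 411, with 5.26 in replicate 1 and 10.01 in replicate 2, whose summits lay at 42 and −98 bp. C51F7.3 and C51F7.4 lie next to each other in frm-7 and share a pooled summit of 16.8, with 7.91 and 5.83 in replicates 1 and 2. F11A10.9, in rbm-34, had 15.3, with 4.11 and 9.26. F39B2.14, which overlaps an exon of tmem-107, had 14.7, with 5.06 in replicate 1 and 10.4 in replicate 2. Its pooled summit lay at −130 bp, and tmem-107 starts 61 bp upstream of the snoRNA gene. That summit is therefore also upstream of the start of tmem-107. Y43F8C.22, in Y43F8C.7, was the 1 hosted gene among the 381 strongest peaks of replicate 1 that was outside the optimal list. It had 9.36 at rank 352 in replicate 1, and 4.04 at rank 13498 in replicate 2, with summits 9 and 121 bp downstream of the 5′ end.

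Some hosted genes without an optimal-list summit carried a different sequence just upstream. GTTCGA is the core of box B, the inner promoter element of tRNA genes that transcription factor TFIIIC binds. On the strand of the gene, it was found in the 150 bases before 15 of the 182 hosted genes (8.24%), against 14 of the 162 other snoRNA genes (8.64%), 2.22% of protein-coding genes and 2.4% of all genes. It was searched for after the sequences had been read. None of the 15 was among the 11 with an optimal-list summit, and 9 of the 15 had a pooled summit. Over all hosted genes the shares were 6.04% and 44%, and over all nuclear genes 0.874% and 23.7%. With 15 genes, these counts do not set those with GTTCGA apart from the other hosted genes. In 10 of the 15 it began within 25 bp of the 5′ end. The 4 of highest pooled signal are shown with GTTCGA in capitals, to set them beside the paired element. At C51F7.3 it begins 44 bp before the 5′ end, inside the neighbouring snoRNA gene C51F7.4, which also holds their shared pooled summit.
F55A11.10 (chrV:11782902-11782991, plus strand): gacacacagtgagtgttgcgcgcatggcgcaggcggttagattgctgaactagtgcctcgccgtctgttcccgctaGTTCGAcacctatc
C51F7.3 (chrV:12303618-12303707, plus strand): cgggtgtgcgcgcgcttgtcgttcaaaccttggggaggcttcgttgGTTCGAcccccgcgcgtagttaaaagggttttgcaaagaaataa
F11A10.9 (chrIV:12086619-12086708, plus strand): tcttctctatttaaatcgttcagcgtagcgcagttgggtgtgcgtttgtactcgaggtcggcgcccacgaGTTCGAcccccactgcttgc
Y43F8C.22 (chrV:19643188-19643277, minus strand): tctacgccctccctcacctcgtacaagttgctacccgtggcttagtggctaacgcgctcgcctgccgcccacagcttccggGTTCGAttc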

How the data were processed

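ChIP-seq peak lists from 2 biological replicates (1 group) were used, all on ce11. They were the optimal IDR list, the list from pooled replicates (labelled as peaks and background, the input for IDR) and 1 list per replicate. In each, the authors deposited a signal per peak, a −log10 q-value and a summit position in narrowPeak format. The q-value was not used. Aligner, peak caller and thresholds: not given in the sources used here. Depth is unknown. Genes came from Ensembl release 115 of WBcel235 and sequences from the RefSeq genome of that assembly. The mitochondrial genome, the ce10 lists and 2 snoRNA genes named smy- were left out.

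A summit was assigned to each gene whose 5′ end was within 300 bp, and the highest signal was kept. A host is a same-strand protein-coding gene that spans the whole snoRNA gene. For the 3 genes with more than 1 host, the longest was used. Intervals on shares are exact Clopper-Pearson (95%, scipy 1.17.1). Identity between snoRNA genes is from global alignment (Biopython 1.88). Assignment of summits and hosts and the element search were checked on simulated data.

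The text names every hosted gene with an optimal-list summit and the 5 of highest pooled signal among the rest, besides host groups (ribosomal protein, translation factor and snoRNA particle genes) and genes nearest the 300 bp limit. C02C6.13, Y43F8C.22, the sets that share a sequence and the sequence patterns were chosen after values were seen. The members and lists were chosen with earlier results of these data known. Alternatives changed the distance, the peak threshold, the replicates, the overlap rule, the host rule and shared peaks.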

Additional observations from a re-analysis of the deposited data

How the results depend on the processing

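The share of hosted genes with a summit was 5.49 to 7.75% within 150 bp, in the upper 50% of the optimal list, with peaks overlapping the gene body, with hosts counted only by introns and with peaks shared with another small RNA or protein-coding gene left out. In these settings the median signal was 402 to 406 and the median position −49 to −48 bp. Within 1000 bp the share was 11.5%, the median signal 67.9 and the median position −265 bp. Those summits include ones at the starts of host genes such as iff-2, cdc-48.1 and rps-23. With 1 replicate left out and the 381 strongest peaks of the other used, the share was 5.49 to 6.59%, the median signal 188 to 216 (each replicate list has its own scale) and the median position −49 to −42 bp. The share of other snoRNA genes was 13.6 to 18.5% over all settings run. No paired analysis was possible because there is 1 group and no result came from a test. The unknown depth leaves absence from a list no measure of absent binding.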
